A study of Mus musculus with 20 samples.

Results

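The left atrium was compared with the left ventricle in newborn mice that had breathed 100% oxygen, by RNA sequencing of whole dissected chambers. The comparison used 5 hyperoxic left atrial libraries, numbered 1 to 5, against 5 hyperoxic left ventricular libraries, numbered 1, 2, 4, 5 and 6, chosen by their titles, which is 10 of the 20 libraries in the series. All pups were of the C57BL/6J strain. Exposed pups were kept in 100% oxygen from birth to postnatal day 4, and the other 10 libraries, 5 left atrial and 5 left ventricular, came from pups of the same age and strain kept in room air at 21% oxygen. Nursing dams alternated between the 2 atmospheres. The labels do not say how many pups gave each library, nor whether an atrium and a ventricle with the same number came from the same heart. The p-values therefore measure the spread between libraries, which was estimated over all 20. Chambers were taken apart with forceps and a needle, so each library held every cell type of that piece of tissue.

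The atrium and the ventricle of a mouse heart are built by different gene programmes. Atrial muscle cells use their own myosin light chains, store and secrete natriuretic peptides, and depend on transcription factors such as TBX5 and COUP-TFII (Nr2f2). Ventricular muscle cells are kept apart from the atrial fate by IRX4 and HEY2, use another set of myosin light chains, hold more phospholamban, the brake on the calcium pump of the sarcoplasmic reticulum, and are richer in mitochondria. Pulmonary vein muscle, which continues into the left atrium, lies next to the lung and carries an atrial-type programme of its own.

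Of 16598 genes with enough reads to test, 8098 (48.8%) differed between the hyperoxic chambers by edgeR's quasi-likelihood test at a Benjamini-Hochberg adjusted p under 0.05. In the atrium 4181 genes (25.2%) were higher and 3917 (23.6%) were lower. Differences of 2-fold or more were found for 1705 genes higher (10.3%) and 1343 lower (8.09%), and differences of 8-fold or more for 247 (1.49%) and 234 (1.41%). The ranges of the 5 atrial and 5 ventricular libraries did not overlap for 2751 of the genes on the higher side (16.6%) and 2708 on the lower side (16.3%). The median log2 difference over all tested genes was 0.01. Counts of list members below are to be read beside these shares of all genes. Room-air counts and changes from room air are to be read beside the shares in the next paragraph. All differences below are atrium minus ventricle on the log2 scale with their standard errors (SE), and all levels are CPM (reads of a gene scaled to library size) after TMM scaling, n = 5 libraries per group.

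The same contrast in room air, which shares no library with the hyperoxic one, gave 9122 genes (55%), of which 4762 were higher (28.7%) and 4360 lower (26.3%) in the atrium. Of the 4181 genes higher in the hyperoxic atrium, 2410 were also higher in the room-air atrium, which is 57.6% of the hyperoxic list and 50.6% of the room-air list. Of the 3917 lower genes, 2098 were lower in both, 53.6% and 48.1% of the 2 lists. The difference between the 2 contrasts was itself tested: it passed for 6060 genes (36.5%), with a more positive chamber difference in hyperoxia for 2824 (17%) and a more negative one for 3236 (19.5%). With upper-quartile scaling that split turned to 3250 against 2724, and without the ventricle numbered 5 to 2990 against 2260. The sign of the difference was opposite at the 2 oxygen levels, passing in both, for 405 genes that were higher in the hyperoxic atrium and lower in the room-air atrium, and for 308 that were lower in hyperoxia and higher in room air.

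**Figure D1:**
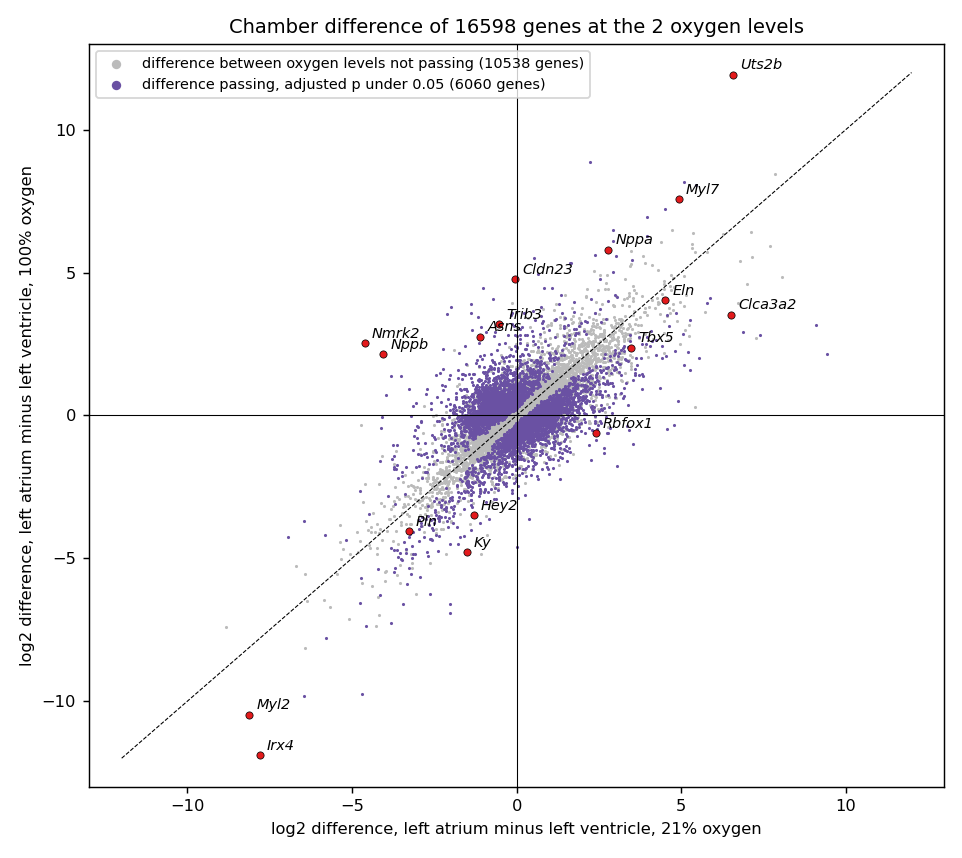
Log2 atrium-minus-ventricle difference in 21% oxygen (horizontal) against that in 100% oxygen (vertical) for 16598 genes, purple where the difference between the 2 contrasts passed (6060 genes) and grey where it did not, with the dashed line marking equal values. Myl7 and Myl2 lie far out in opposite corners, whereas Nppb and Nmrk2 lie to the upper left, with opposite signs at the 2 oxygen levels.

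Library totals ran from 26510081 to 37846202 counts in the 10 hyperoxic libraries. The hyperoxic atria numbered 2 and 4 and the room-air ventricle numbered 4 stood apart because reads of long transcripts were scarcer in them. For each library, log2 level less the mean of all libraries of its chamber was fitted on log2 transcript length. The slopes are thus relative to the library's own chamber over both oxygen levels. They come from the same expression values, and within a chamber their means at the 2 oxygen levels have opposite signs. As a covariate, the slope therefore takes up part of the change from room air itself, which can lower the number passing by construction. The slopes were -0.289 and -0.283 in atria 2 and 4, against 0.0237 to 0.0667 in the other 3 hyperoxic atria and 0.00605 to 0.133 in the room-air atria. Room-air ventricle 4 had -0.22, against -0.0691 to 0.0242 in the other room-air ventricles and 0.0361 to 0.0967 in the hyperoxic ventricles. Hyperoxic atria 2 and 4 and room-air ventricle 4 are called the tilted libraries below, and values without them are given for several results. Y-linked transcripts exceeded Xist in 1 of 5 hyperoxic atria, 2 of 5 hyperoxic ventricles and all 10 room-air libraries, so the sexes of the pups, which the labels do not give, were not balanced between oxygen levels; with Y-linked reads as a covariate 8152 genes passed in hyperoxia and 6298 passed for the difference from room air. The hyperoxic ventricle numbered 1 held the most atrial myosin light chain of its group, as given below. In whole tissue, fewer cells of a type and less RNA per cell cannot be told apart.

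Genes known to set the atrium apart from the ventricle did so in the hyperoxic hearts. Of 15 atrial contractile and secretory genes, 13 were higher in the hyperoxic atrium, 1 was lower (Tmod1, which caps actin filaments, -0.69) and Chgb, a granule protein, did not pass. The median over the list was 4.1, beside 0.01 over all genes, and the ranges did not overlap for 12 on the higher side. In room air 11 of the 15 were higher and 1, Nppb, was lower.

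Myl7, the atrial regulatory myosin light chain (chr11:5896637-5898782, minus strand, GRCm38), measured 4330, 11400, 5380, 10200 and 5460 CPM in atria 1 to 5 and 128, 48.5, 6.95, 2.66 and 8.78 CPM in ventricles 1, 2, 4, 5 and 6. Every atrium was far above every ventricle, and atria 2 and 4, which are tilted towards short transcripts, were the highest. Its difference was 7.56 (SE 1.10, adjusted p = 1.65e-05), against 4.92 in room air, and the difference between those did not pass (2.64, adjusted p = 0.0912). Myl4, the atrial essential light chain, read 5200, 11100, 6130, 10500 and 5790 CPM in the atria and 131, 58.6, 16.6, 26.5 and 26.9 CPM in the ventricles. Ventricle 1 again had the most of it, and the 2 groups lay far apart, at 7.22 (SE 0.68, adjusted p = 2.50e-08). Without the tilted libraries the differences were 7.02 for Myl7 and 6.78 for Myl4.

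Sln encodes sarcolipin, the small inhibitor of the calcium pump in atrial muscle. It stood at 208, 467, 217, 474 and 282 CPM in the atria and at 12.1, 4.99, 0.329, 0.0649 and 0.183 CPM in the ventricles. Ventricles 1 and 2 exceeded the other 3 by more than 10 times, yet none reached an atrium. Mybphl, a myosin-binding protein of atrial and conduction muscle, read 367, 577, 406, 534 and 408 CPM in the atria and 5.5, 1.74, 0.247, 0.422 and 0.329 CPM in the ventricles, a difference of 8.05 (SE 0.87, adjusted p = 4.28e-07). Its order among the ventricles was led by numbers 1 and 2, as for Sln. Without the libraries that held over 100 CPM of the other chamber's light chain, an alternative chosen after seeing the data, 7294 genes passed in hyperoxia.

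Per kilobase of exon, so that genes can be compared, mean levels in the hyperoxic atrium were 24100 CPM for Nppa and 12500 CPM for Myl7, against 5.71 CPM for Myl2. In the hyperoxic ventricle the mean level per kilobase was 8100 CPM for Myl2, 3060 CPM for Myl3, 432 CPM for Nppa and 65.9 CPM for Myl7. The 2 regulatory light chains, Myl7 and Myl2, differed between the chambers by more than 100-fold in opposite directions.

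Among the genes with the largest atrial excess, Uts2b, a urotensin-related peptide gene, had 12520 counts summed over the 5 hyperoxic atria and 2 over the 5 ventricles, a depth-corrected ratio of 4850 (95% exact counting interval 1340 to 40000). Kcnh7, a potassium channel of the ERG family, read 20, 19.1, 21.3, 18 and 25.8 CPM in the atria and 0.209, 0, 0, 0 and 0.0366 CPM in the ventricles (difference 8.44, SE 0.39, adjusted p = 8.73e-14). Fgf12, an intracellular partner of sodium channels, read 193, 301, 239, 347 and 253 CPM against 2.93, 0.851, 0, 0.162 and 0.402 CPM, at 8.16 (SE 0.77). Each of these 3 genes was below 3 CPM in every hyperoxic ventricle, and each was higher in the room-air atrium too. Ryr3, a calcium release channel, was higher by 6.96 (SE 0.47) and showed a larger chamber difference than in room air by 3.0 (SE 0.62, adjusted p = 0.00114), with 122, 64.8, 128, 63.9 and 112 CPM in the atria and 0.227 to 1.49 CPM in the ventricles. A2ml1 (6.49), Tmem163 (6.37) and Mlana (6.01), the last a melanocyte antigen, completed the 12 largest together with the genes above and Nppa.

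**Figure D2:**
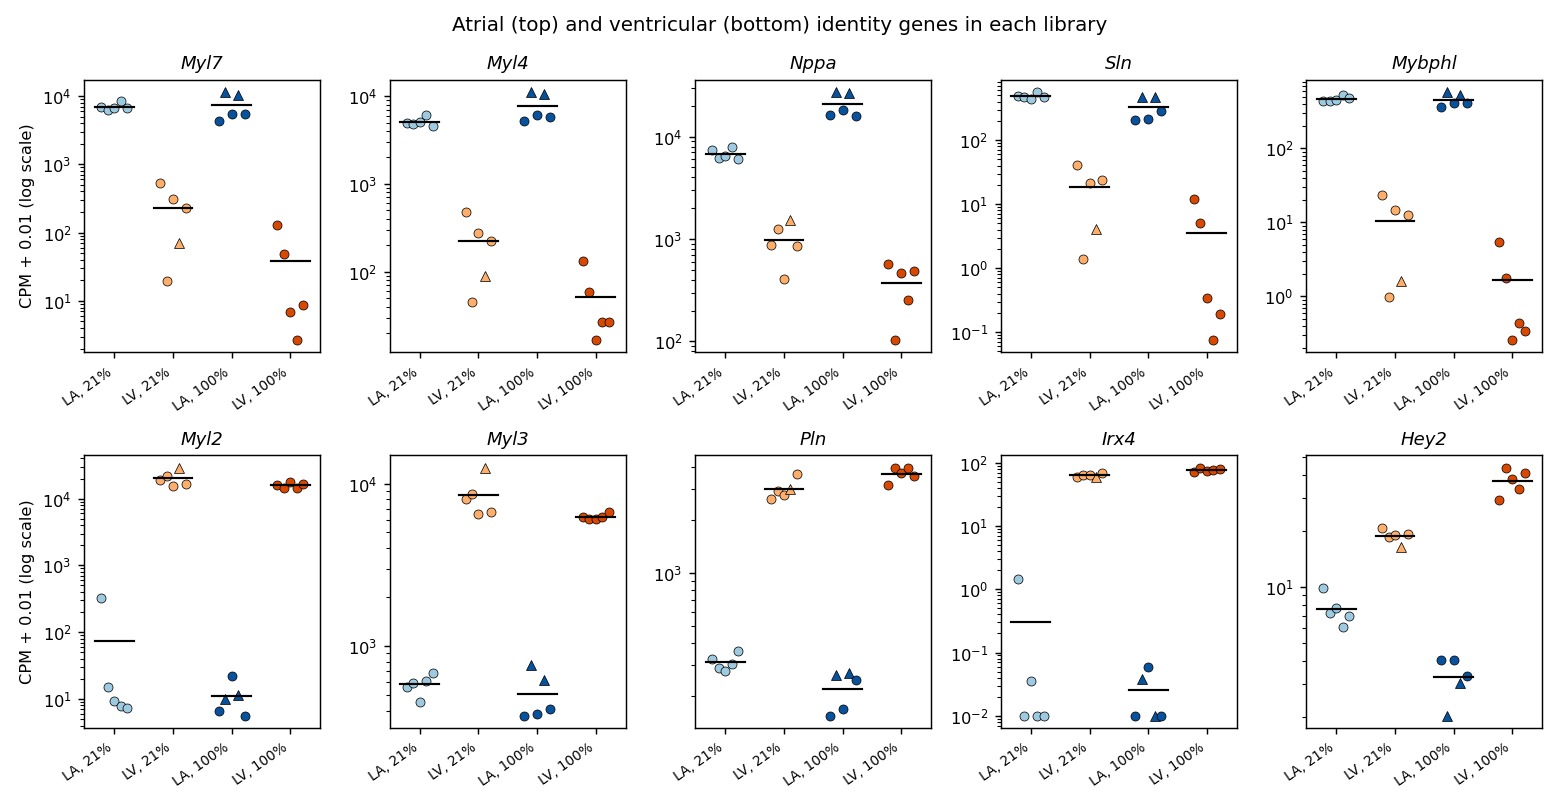
CPM plus 0.01 on a log axis for 5 atrial genes (Myl7, Myl4, Nppa, Sln, Mybphl) and 5 ventricular genes (Myl2, Myl3, Pln, Irx4, Hey2), with 1 dot per library in each of the 4 groups, triangles for the tilted libraries and bars at the group means. The chambers do not overlap for any of the 10 genes in hyperoxia, and Sln and Myl7 spread widely among the ventricles.

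The atrial and pulmonary vein transcription factors divided. Of 15 tested, 7 were higher in the hyperoxic atrium and 5 lower (Tbx3, Prrx1, Hey1, Meis1 and Etv1), with a median of 0.20; in room air 11 were higher and 1 lower. For 8 of the 15 the chamber difference was more negative in hyperoxia than in room air and for none more positive, beside 19.5% and 17% of all genes.

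Tbx5, required for atrial rhythm and septation, read 79, 102, 89.2, 75.6 and 81.7 CPM in the atria and 20.2, 16.8, 13.6, 16.5 and 15.2 CPM in the ventricles. Its difference of 2.37 (SE 0.14) was smaller than the 3.47 of room air by 1.09 (SE 0.20, adjusted p = 0.000279), and the room-air atria averaged 186 CPM.

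Osr1, a zinc finger factor of the posterior second heart field, was higher by 4.37 (SE 0.25) and Nr2f2 by 0.93 (SE 0.10). Tbx3, a repressor that marks the conduction system, lay on the ventricular side at both oxygen levels, with 0.482 to 0.968 CPM in the atria and 11.6 to 14 CPM in the ventricles (-4.25, SE 0.20). Hey1, a Notch target usually named as an atrial counterpart of Hey2, read 11.7, 8.72, 9.09, 10.2 and 10.4 CPM in the atria and 15, 14.5, 15.6, 15.4 and 17.3 CPM in the ventricles. All 5 atria were below all 5 ventricles (-0.64, SE 0.10, adjusted p = 8.84e-06), the opposite of room air (0.33). Gja5, the connexin of atrial and conduction muscle, showed a narrowed gap: 57.7, 88.2, 60.2, 88.5 and 71.1 CPM in the atria against 22.5, 28.2, 22.5, 22 and 23.7 CPM in the ventricles. It still differed by 1.62 (SE 0.13), but by 1.98 less than in room air (SE 0.18, adjusted p = 1.80e-07), where the atrial mean was 247 CPM and the ventricular mean 20.4 CPM.

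Ventricular genes were lower in the atrium almost without exception. Of 10 ventricular contractile genes 9 were lower, with no overlap for the same number, and Slc2a4, the insulin-responsive glucose transporter, did not pass; the list median was -3.0. Of 11 ventricular transcription factors 10 were lower and 1, Tbx20, a factor of all chambers, was higher by 0.46, with a list median of -3.5.

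Myl2, the ventricular regulatory light chain (chr5:122100951-122113472, plus strand), read 6.68, 9.97, 22, 11.5 and 5.59 CPM in the hyperoxic atria and 16100, 14400, 17500, 14300 and 16700 CPM in the ventricles. Its difference was the most negative of the genes with more than a few counts in both groups, -10.47 (SE 1.25, adjusted p = 1.47e-06). Pln, phospholamban, read 154, 264, 169, 268 and 245 CPM against 3160, 3940, 3680, 3960 and 3570 CPM (-4.06, SE 0.16), and its chamber difference was 0.78 more negative than in room air (SE 0.20, adjusted p = 0.00537). Myh7, the slow myosin heavy chain, read 16.7, 20.9, 19.5, 20.3 and 15.5 CPM against 369, 410, 316, 372 and 442 CPM, a difference of -4.36 (SE 0.25). In each of these 3 genes the lowest ventricle was more than 10 times above the highest atrium.

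Irx4 had 3 counts over the 5 atria and 10869 over the 5 ventricles, a depth-corrected ventricular excess of 4680 (95% exact counting interval 1600 to 22700). Hey2, the Notch-family repressor of atrial genes in ventricular muscle, read 4.02, 2.01, 4.03, 3.03 and 3.28 CPM in the atria and 29.5, 43.7, 37.9, 33.5 and 40.9 CPM in the ventricles. The gap was wider than in room air, -3.49 (SE 0.17) against -1.31, with a difference of -2.18 between them (SE 0.22, adjusted p = 5.07e-07). Irx3 (-3.82), Irx2 (-6.47), Irx1 (-5.98) and Hopx (-1.95), the last a homeodomain protein without DNA binding, were lower in all 5 atria. Cacng6, a calcium channel gamma subunit, had 2 counts in the atria and 1894 in the ventricles, an excess of 1220 (338 to 10100). Lrtm1 (-7.78), Timp4, a metalloproteinase inhibitor (-6.71), Car4, a carbonic anhydrase on capillary and muscle membranes (-6.55), Ush1c (-6.51), Asb15 (-5.92), Cpa1 (-5.88) and Fbp2, the muscle fructose bisphosphatase (-5.69), made up the rest of the 12 most negative genes.

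The contractile apparatus shared by both chambers also leaned to the ventricle. Of 24 shared sarcomere genes, 15 were lower in the hyperoxic atrium and 1 was higher (Myom2, of the M-band), with a median of -0.37. Tnni1, the fetal troponin I, was lower by 1.86 on the log2 scale (SE 0.16), Mybpc3, cardiac myosin-binding protein C, had a difference of -1.38 (SE 0.11) and Ldb3, a Z-disc protein, of -1.06 (SE 0.08). In room air 5 were higher and 16 lower, and Cmya5, Lmod2 and Mylk3 changed sign between the oxygen levels.

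Potassium channel and calcium handling genes were more often lower than higher in the hyperoxic atrium, and more often higher than lower in the room-air atrium. Of 24 potassium channel genes, 14 were lower in the hyperoxic atrium and 3 higher (Abcc8, Kcnj3 and Kcnv2), with a median of -0.55; in room air 8 were lower and 13 higher, with a median of 0.45. The change between the 2 contrasts was negative for 15 and positive for 2, and without the tilted libraries negative for 14 and positive for none. Of 24 calcium handling genes, 15 were lower and 1 higher (Sln) in the hyperoxic atrium, against 8 lower and 10 higher in room air, and the change was negative for 16 and positive for 1, or 17 and 1 without the tilted libraries. Leaving out the tilted libraries does not remove the length difference, because the other room-air ventricles still had lower slopes than every hyperoxic ventricle. Over all genes the change passed for 2630 with length slope as a covariate, against 6060 without it. For the potassium channel and calcium handling lists, counts with that covariate are not given here. Ryr3 and Kcnh7, described above with 2 of the largest atrial excesses, are in neither list and are not in the list counts above.

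Kcnj2, the inward rectifier that holds the resting potential, read 21.5, 18, 21.1, 17.7 and 21.9 CPM in the atria and 32.8, 36.9, 43.5, 35 and 34.3 CPM in the ventricles. The groups did not overlap, and the difference of -0.86 (SE 0.10) was 1.72 below that of room air (SE 0.15, adjusted p = 5.71e-08). Kcnh2, the channel of the rapid delayed rectifier, read 88.5, 82.6, 83.1, 63.2 and 83.6 CPM against 105, 124, 89.1, 137 and 113 CPM. Atrium 4 was the lowest, and the difference was -0.50 (SE 0.10) in hyperoxia and 1.10 in room air. Kcnj11, Kcnj12 and Kcnn2 were the other potassium channel genes that were lower in the hyperoxic and higher in the room-air atrium, making 5 of 24 (20.8%) beside 1.86% of all genes.

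Hcn4, the pacemaker channel, overlapped between the chambers: 4.05, 3.4, 3.74, 1.85 and 4.68 CPM in the atria against 8.87, 8.55, 3.58, 7.98 and 5.56 CPM in the ventricles. It was lower in the hyperoxic atrium (-0.96, SE 0.32, adjusted p = 0.0159) and higher in the room-air atrium (1.25), but with length slope as a covariate its hyperoxic difference no longer passed (-0.57, adjusted p = 0.160). Kcna5, the channel of the ultrarapid potassium current, stood clearly on the ventricular side, with 4.97, 3.14, 3.86, 4.89 and 2.97 CPM in the atria and 36.5, 36.5, 34.2, 32.9 and 31.3 CPM in the ventricles (-3.11, SE 0.15), and did so in room air too (-2.73). Kcnj3, a subunit of the acetylcholine-gated channel, kept its atrial excess of 2.61 (SE 0.15), reduced from 3.44 in room air. Fgf13, a sodium channel partner, was lower in the hyperoxic atrium by 1.69 (SE 0.11), with no passing difference in room air (-0.05), and the change of -1.64 passed (SE 0.15).

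Atp2a2, the calcium pump of the sarcoplasmic reticulum, read 2280, 2490, 2980, 2490 and 2790 CPM in the hyperoxic atria and 2920, 3680, 3680, 4260 and 3530 CPM in the ventricles. Only atrium 3 reached above the lowest ventricle. The difference was -0.47 (SE 0.12, adjusted p = 0.00188) in hyperoxia and 0.88 in room air, where the atrial mean was 4400 CPM and the ventricular mean 2380 CPM. Ryr2, the calcium release channel, read 239, 182, 272, 198 and 296 CPM against 546, 647, 756, 660 and 691 CPM. Every atrium had less than every ventricle, -1.48 (SE 0.14), or -1.3 without the tilted libraries, whereas the room-air chambers did not pass (0.11). Cacna1c, the pore of the L-type calcium channel, was lower by 2.06 on the log2 scale (SE 0.18), and its atrial values of 73.6, 41.1, 68.2, 31.7 and 67 CPM were lowest in the tilted atria; without those libraries its difference was -1.75.

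Of 18 intercalated disc genes, 14 were lower and 2 higher (Cxadr and Gja5) in the hyperoxic atrium, with a median of -0.62, against 5 lower and 3 higher in room air; Lmo7 differed by -1.47 (SE 0.10) and Gjc1, connexin 45, by -0.88 (SE 0.08). Gja1, connexin 43, read 398, 461, 517, 497 and 482 CPM against 520, 577, 632, 632 and 563 CPM, a small difference of -0.31 (SE 0.11, adjusted p = 0.0180) with no overlap that no longer passed for Gja1 without atrium 1 (-0.26, adjusted p = 0.053) or among the hyperoxic libraries with more Xist than Y-linked reads (-0.33, adjusted p = 0.059). Of 16 conduction system genes 9 were lower and 4 higher, against 3 and 9 in room air, and the 10 sodium and pacemaker channel genes split into 5 higher and 4 lower. Of 18 autonomic receptor and cyclic nucleotide genes 8 were lower and 5 higher; Adra1b, an alpha-adrenergic receptor, was lower by 1.93 on the log2 scale (SE 0.17) and Adcy5, an adenylyl cyclase, differed by -0.96 (SE 0.09). Chrm2, the muscarinic receptor, was higher by 0.75 (SE 0.17), 1.48 less than in room air (SE 0.24), with overlapping groups in hyperoxia.

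**Figure D3:**
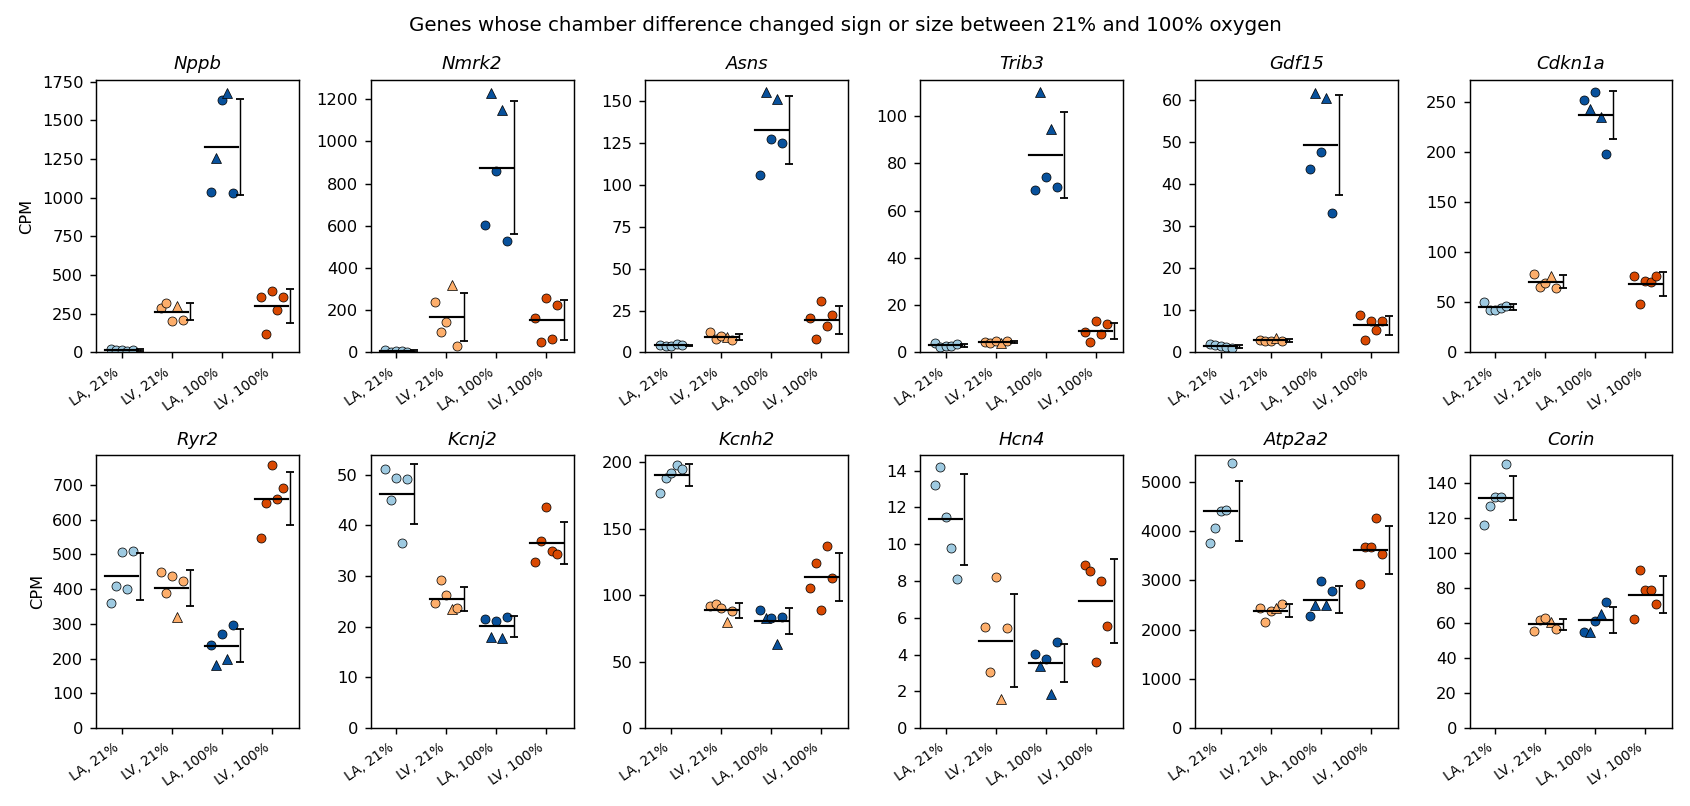
CPM on linear axes, 1 dot per library with bars at the mean and error bars of 1 SD (n = 5), with triangles for the tilted libraries, for 6 genes whose chamber difference was more positive in hyperoxia than in room air (Nppb, Nmrk2, Asns, Trib3, Gdf15, Cdkn1a) and 6 with a more negative one (Ryr2, Kcnj2, Kcnh2, Hcn4, Atp2a2, Corin). For Nppb the hyperoxic atria sit between 1030 and 1680 CPM, above every ventricle, and for Ryr2 the hyperoxic atria sit between 182 and 296 CPM, below every hyperoxic ventricle.

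The natriuretic peptides are made as prohormones by stretched or stressed heart muscle, cut by the protease corin, and cleared by the receptor NPR3. In the hyperoxic hearts both peptide genes were highest in the atrium. Of 12 natriuretic peptide genes 5 were higher in the hyperoxic atrium (Nppa, Nppb, Npr3, Mme and Pam) and 3 lower (Npr1, Corin and Pcsk6); in room air 7 were higher and 2 lower.

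Nppa, atrial natriuretic peptide (chr4:148000722-148002079, plus strand), read 16200, 27200, 18400, 26800 and 15800 CPM in the hyperoxic atria and 567, 103, 464, 252 and 485 CPM in the ventricles. The tilted atria were the highest and ventricle 2 the lowest. Its difference of 5.80 (SE 0.42, adjusted p = 1.07e-10) exceeded that of room air by 3.01 (SE 0.49, adjusted p = 0.000113), or by 2.49 without the tilted libraries and 1.99 with length slope as a covariate. The excess over room air no longer passed with length slope and Y-linked reads together (1.80, adjusted p = 0.064) or with the replicate block and length slope together (1.64, adjusted p = 0.41). The room-air means were 6790 CPM in the atrium and 981 CPM in the ventricle.

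Nppb, brain natriuretic peptide (chr4:147985788-147987205, plus strand), changed sides. It read 1040, 1260, 1630, 1680 and 1030 CPM in the hyperoxic atria and 356, 121, 395, 272 and 359 CPM in the hyperoxic ventricles. In room air the atria held 21.8, 17.8, 12.8, 11.6 and 15.9 CPM and the ventricles 288, 319, 202, 303 and 211 CPM. The ventricles overlapped between oxygen levels while the hyperoxic atria lay apart from every other library. The difference was 2.15 (SE 0.25, adjusted p = 2.48e-07) in hyperoxia and -4.05 in room air, a change of 6.2 (SE 0.37, adjusted p = 9.78e-10) that was 6.04 without the tilted libraries and 5.82 with length slope as a covariate.

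Nmrk2, a nicotinamide riboside kinase of muscle that takes part in NAD synthesis (chr10:81198170-81202051, minus strand), had the largest change of all named genes. It read 604, 1230, 860, 1150 and 526 CPM in the hyperoxic atria and 162, 50, 259, 62.5 and 227 CPM in the ventricles. The room-air atria held 14, 3.06, 8.02, 6.03 and 3.06 CPM and the room-air ventricles 237, 96.9, 145, 321 and 32.4 CPM. The difference was 2.52 (SE 0.59, adjusted p = 0.00169) in hyperoxia and -4.61 in room air, a change of 7.13 (SE 0.88, adjusted p = 1.68e-05), or 6.36 without the tilted libraries. Nmrk2 overlaps Atcayos on the opposite strand, and whether reads were counted by strand is not given in the sources used here.

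The stretch and Z-disc stress genes, a list that includes Nppa, Nppb and Nmrk2, were mixed: of 17 tested, 8 were higher and 4 lower (Xirp2, Fhl2, Hspb7 and Myh7). For 11 the chamber difference was more positive than in room air and for 1 more negative. Nppa, Nppb and Nmrk2 are among the 8 and among the 11. Ankrd1, a titin-associated stress protein, read 2980, 3790, 4120, 4450 and 3550 CPM in the hyperoxic atria and 1200, 656, 1420, 1400 and 1030 CPM in the ventricles (1.73, SE 0.16), with no passing difference in room air (0.10). Fhl1, a LIM protein of stretch signalling, was higher by 2.49 (SE 0.14). Acta1, skeletal actin, read 55.1 to 85.5 CPM in the atria and 34 to 123 CPM in the ventricles, a difference of -0.20 (SE 0.27) that did not pass, whereas in room air it was -2.89. Corin read 55 to 72.3 CPM in the atria and 62.4 to 90.2 CPM in the ventricles, -0.30 (SE 0.10, adjusted p = 0.0126), against 1.15 in room air; for Corin the hyperoxic difference did not pass among libraries with more Xist than Y-linked reads (-0.21, adjusted p = 0.14).

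Stress response genes were higher in the hyperoxic atrium. The amino acid response is driven by ATF4 when amino acids run short or proteins fold badly, the heat shock response by HSF1 when cytosolic proteins misfold, the p53 response by DNA damage, and the NRF2 response by oxidants and electrophiles. Of 34 amino acid and ER stress response genes, 32 were higher in the hyperoxic atrium and none lower, 30 of them without overlap, beside 25.2% and 16.6% of all genes; Atf3 and Ddit4 did not pass. The median was 1.3, against 0.17 in room air, where 15 were higher and 5 lower. The count in hyperoxia was also 32 without the tilted libraries.

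The ATF4-binding letters TGATGNAA (searched on both strands, within 250 bases upstream of the first listed RefSeq start) occurred in 10 of 31 promoters of that list (32.3%), beside 954 of 27025 promoters of all genes (3.53%). Those shown here are 3 with a match and 1 without, with the matching letters in capitals, because Asns, Chac1, Slc7a11 and Trib3 are textbook targets of ATF4. Coordinates are GRCm38.p6. The promoter of Atf3, which did not pass in hyperoxia, also held a match (110 bases upstream) and is not shown.
Asns (chr6:7693210-7693459, minus strand, match 23 bases upstream): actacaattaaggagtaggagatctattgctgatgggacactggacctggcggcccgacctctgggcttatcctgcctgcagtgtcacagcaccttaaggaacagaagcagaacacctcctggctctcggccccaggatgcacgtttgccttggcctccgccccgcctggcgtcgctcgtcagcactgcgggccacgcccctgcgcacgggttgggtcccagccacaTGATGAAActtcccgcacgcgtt
Chac1 (chr2:119350992-119351241, plus strand, match 193 bases upstream): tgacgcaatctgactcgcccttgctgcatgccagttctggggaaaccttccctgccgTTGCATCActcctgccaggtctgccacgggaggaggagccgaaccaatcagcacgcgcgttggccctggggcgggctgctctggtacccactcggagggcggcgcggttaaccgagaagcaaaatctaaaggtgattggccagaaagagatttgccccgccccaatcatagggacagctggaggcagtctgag
Slc7a11 (chr3:50443614-50443863, minus strand, matches 66 and 47 bases upstream): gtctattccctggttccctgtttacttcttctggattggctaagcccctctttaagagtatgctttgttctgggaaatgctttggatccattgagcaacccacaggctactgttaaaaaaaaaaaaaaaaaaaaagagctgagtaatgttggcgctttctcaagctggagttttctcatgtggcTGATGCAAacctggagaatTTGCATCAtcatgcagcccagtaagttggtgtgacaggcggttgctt
Trib3 (chr2:152344061-152344310, minus strand, no match): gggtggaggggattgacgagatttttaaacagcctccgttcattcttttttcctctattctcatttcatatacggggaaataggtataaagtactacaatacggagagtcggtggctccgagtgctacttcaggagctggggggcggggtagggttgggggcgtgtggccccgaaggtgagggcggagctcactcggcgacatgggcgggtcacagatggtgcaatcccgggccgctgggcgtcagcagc
A match is only an occurrence of letters, and these data do not measure binding. The list holds genes already linked to this response, so its higher share of matches does not bear on the hyperoxic difference.

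Asns, asparagine synthetase, whose promoter holds 1 match, read 106, 155, 127, 151 and 125 CPM in the hyperoxic atria and 20.7, 8.13, 30.9, 15.8 and 22.3 CPM in the ventricles. The hyperoxic chambers did not overlap, and its difference was 2.76 (SE 0.22, adjusted p = 8.76e-10) against -1.11 in room air. Trib3, a pseudokinase that feeds back on ATF4, read 68.9, 110, 74.1, 94.7 and 70.2 CPM against 8.69, 4.26, 13.1, 7.66 and 11.9 CPM, although its shown promoter has no match. That is 3.20 (SE 0.22), with a change of 3.73 from room air (SE 0.31, adjusted p = 4.99e-08). Ventricle 2 was lowest and ventricle 4 highest for both genes.

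Nupr1, a stress-induced chromatin protein, read 31.8, 67.9, 35.2, 48.4 and 31.1 CPM in the atria and 2.73 to 4.48 CPM in the ventricles (3.59, SE 0.21), and was higher in the room-air atrium too (2.37). Slc3a2, the heavy chain of amino acid exchangers, was higher by 1.74 (SE 0.10) and Sesn2, a leucine sensor, by 1.93 (SE 0.11). Atf4 itself was higher by 1.43 (SE 0.15) in hyperoxia and lower in room air (-0.41), and Ddit3, the apoptosis-linked factor CHOP, was higher by 2.13 (SE 0.23). Asns, Atf4, Gars, Gdf15 and Psat1 were higher in the hyperoxic and lower in the room-air atrium, 5 of 34 (14.7%) beside 2.44% of all genes.

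Of 20 heat shock and folding genes, 13 were higher and 2 lower (Hspb6 and Hspb7, both small heat shock proteins), against 1 higher and 10 lower in room air. Cryab, Hspb1 and Hspb8, other small heat shock proteins, were higher in the hyperoxic and lower in the room-air atrium. Without the tilted libraries 11 were higher. The heat shock element, searched as GAANNTTC on both strands, occurred in 6 of 15 promoters of the list (40.0%), beside 1833 of 27025 (6.78%). Hspa1a and Hspa1b, whose promoters are nearly the same, are both among the 6, and the promoters of Hsph1 and Dnajb1 held no match. This list too holds genes already linked to its response, so the higher share does not bear on the hyperoxic difference. The promoter of Hspa1a, the inducible HSP70, is shown with its single match in capitals, since that gene had the largest difference of the list.
Hspa1a (chr17:34972157-34972406, minus strand, match 104 bases upstream): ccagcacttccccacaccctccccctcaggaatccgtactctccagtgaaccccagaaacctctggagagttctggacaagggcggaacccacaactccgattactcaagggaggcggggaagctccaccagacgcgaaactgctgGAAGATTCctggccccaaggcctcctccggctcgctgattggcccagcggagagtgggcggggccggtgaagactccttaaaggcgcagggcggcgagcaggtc
Hspa1a read 14.2, 40.2, 30.2, 24.8 and 14.2 CPM in the hyperoxic atria and 2.06, 1.78, 2.84, 1.88 and 1.72 CPM in the ventricles. Atria varied nearly 3-fold among themselves and all were above the ventricles; the difference was 3.59 (SE 0.26, adjusted p = 1.34e-10), with no passing difference in room air (0.23). Its near-identical neighbour Hspa1b could share reads with it, so the split of counts between them is uncertain.

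Of 31 p53 target genes, 22 were higher in the hyperoxic atrium and 3 lower (Ddb2, Rrm2b and Sesn1), beside 25.2% and 23.6% of all genes. The ranges did not overlap for 19 of the higher ones, beside 16.6% of all genes. In room air 5 were higher and 10 lower. Cdkn1a, the cell cycle inhibitor p21, read 252, 243, 260, 235 and 198 CPM in the hyperoxic atria and 76.9, 48, 71.6, 70.4 and 76.2 CPM in the ventricles. The atria were narrow in spread and ventricle 2 was low. The difference of 1.79 (SE 0.11, adjusted p = 9.15e-12) was opposite in sign to room air (-0.64), where the means were 45.4 CPM in the atrium and 70.9 CPM in the ventricle. Gdf15, a secreted stress cytokine of both the p53 and the ATF4 lists, read 43.5, 61.7, 47.6, 60.3 and 33.2 CPM against 8.84, 3.06, 7.52, 5.39 and 7.57 CPM (2.92, SE 0.22). Mdm2, the p53 ubiquitin ligase and target, was higher by 0.75 (SE 0.08).

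Of 27 NRF2 antioxidant genes, 17 were higher and 3 lower (Abcc1, Nqo1 and Cat), against 8 and 10 in room air, and 14 were higher without the tilted libraries. Osgin1, an oxidative stress growth inhibitor, read 10.1, 11.5, 8.55, 5.56 and 6.56 CPM in the atria and 1.79, 1.35, 0.616, 1.07 and 1.32 CPM in the ventricles, 2.77 (SE 0.25) where room air gave 0.00. Srxn1, sulfiredoxin, was higher by 1.59 (SE 0.13), Hmox1, heme oxygenase, by 1.94 (SE 0.18) and Ftl1, ferritin light chain, by 1.17 (SE 0.10). The last of these is in a family with many processed copies, so its reads may be shared.

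**Figure D4:**
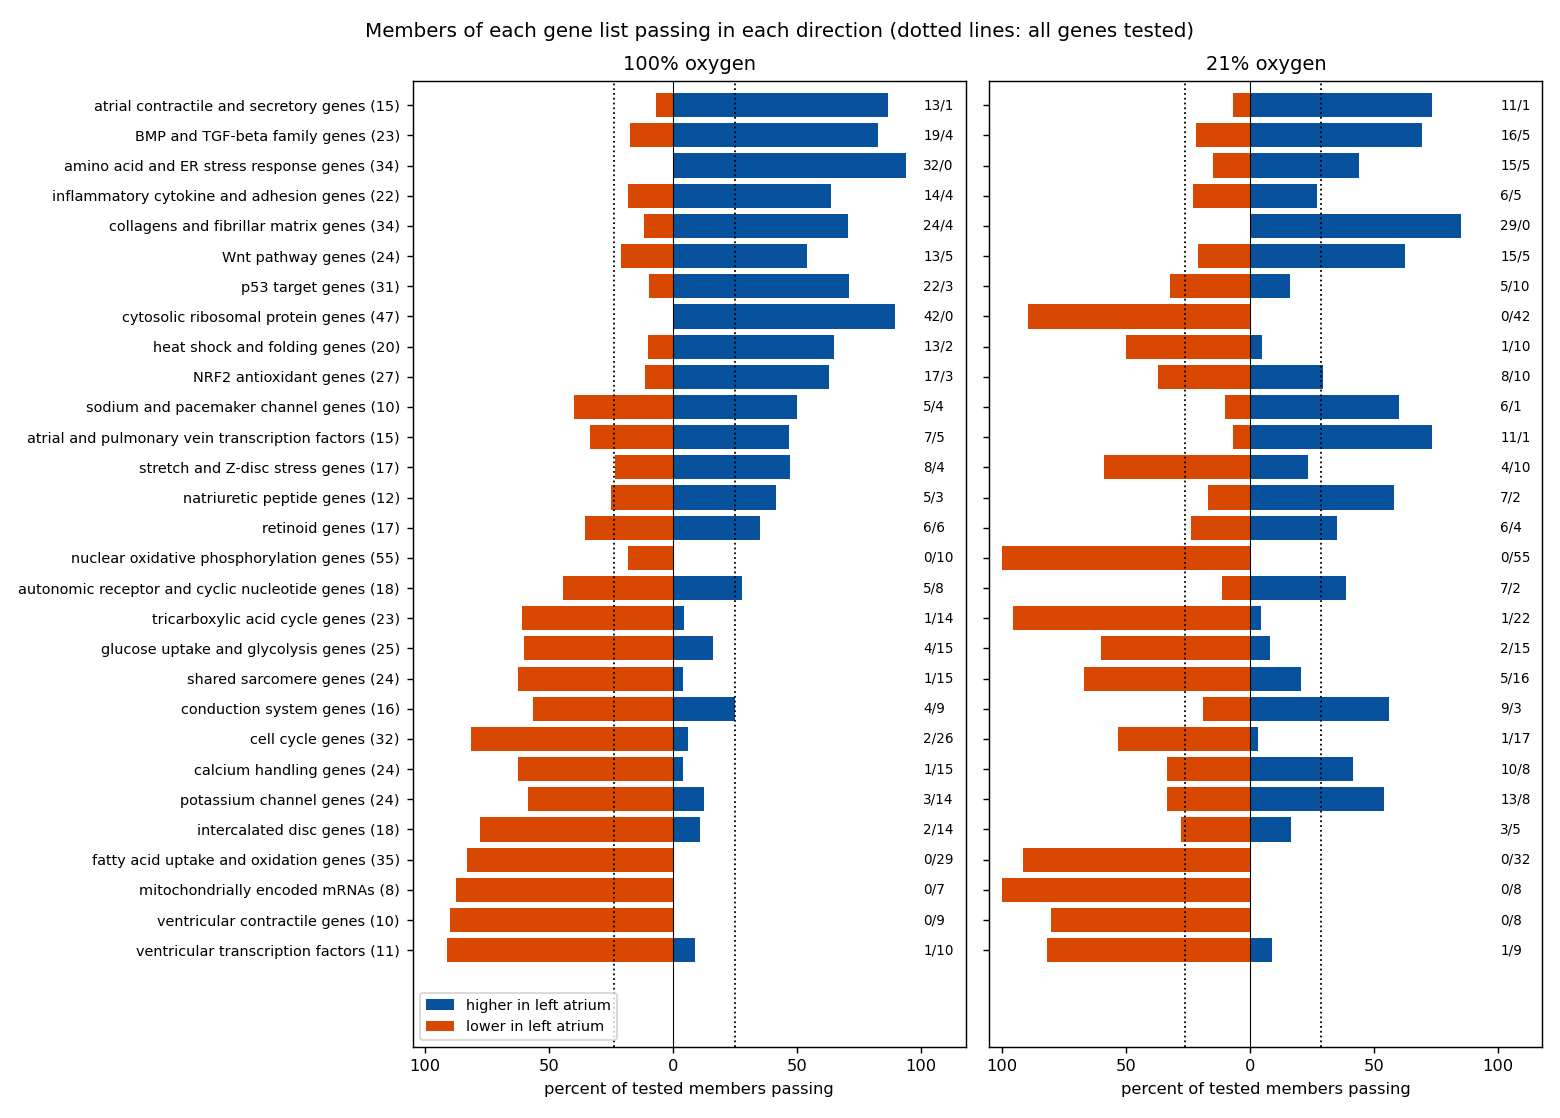
Percent of tested members of 29 gene lists that were higher (blue) or lower (orange) in the left atrium, at 100% oxygen and at 21% oxygen, with the counts at the right and dotted lines at the share of all genes tested. The amino acid list goes from 15 higher and 5 lower in room air to 32 higher and none lower in hyperoxia, and the potassium channel list from 13 higher and 8 lower to 3 higher and 14 lower.

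Fuel genes and mitochondrially encoded mRNAs were mostly lower in the atrium. Of 35 fatty acid uptake and oxidation genes, 29 were lower in the hyperoxic atrium and none higher, beside 23.6% and 25.2% of all genes. The ranges did not overlap for 28, beside 16.3% of all genes on the lower side, and the median was -0.97. In room air 32 were lower and none higher. Ucp3, an uncoupling protein of muscle mitochondria, read 1.22, 1.19, 1.82, 0.958 and 1.23 CPM against 34.4, 42.3, 30.5, 39.5 and 23.5 CPM (-4.71, SE 0.17, adjusted p = 3.74e-15). Every ventricle was more than 10 times above every atrium, and the gap was wider than in room air, with a difference of -1.06 between them (SE 0.22). Cd36, the fatty acid transporter, differed by -1.88 (SE 0.11), near its room-air value of -1.91.

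Of 8 mitochondrially encoded mRNAs, 7 were lower and mt-Nd3 did not pass, with a median of -1.4. For mt-Cytb, cytochrome b, the atria read 10700, 11000, 11200, 12100 and 14200 CPM and the ventricles 37400, 40300, 45900, 33300 and 40300 CPM. Every ventricle had more than 2 times the highest atrium (-1.74, SE 0.17), much as in room air (-1.51). Of 23 tricarboxylic acid cycle genes 14 were lower (21 without the tilted libraries) and 1 higher (Pcx, pyruvate carboxylase), and of 25 glucose uptake and glycolysis genes 15 were lower and 4 higher (Pfkfb3, Pgam1, Slc16a3 and Slc2a1). Idh2 differed by -1.0 (SE 0.12), Pfkl by -0.89 (SE 0.09) and Ldha by -0.81 (SE 0.11).

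The nuclear oxidative phosphorylation genes, which have short transcripts, depended on the tilted libraries. Of 55, 10 were lower in the hyperoxic atrium and none higher, a smaller share than the 23.6% of all genes that were lower, with a median of -0.25, but without the tilted libraries all 55 were lower, with a median of -0.72, and leaving out atrium 2 alone or atrium 4 alone gave 21 or 23. In room air all 55 were lower. The change from room air was positive for 50 of the 55, for 36 without the tilted libraries and for 2 with length slope as a covariate. Cyc1, cytochrome c1, read 421, 652, 474, 624 and 425 CPM in the atria and 838, 775, 796, 839 and 964 CPM in the ventricles, and atria 2 and 4 were nearest to the ventricles (-0.70, SE 0.12).

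The cytosolic ribosomal protein genes went the same way with those libraries. Of 47, 42 were higher in the hyperoxic atrium, with a median of 0.57 and 7 not overlapping, and none lower, whereas in room air 42 were lower and none higher. Without the tilted libraries 8 were higher in hyperoxia, with a median of 0.13, and with length slope as a covariate 5, with a median of 0.06; leaving out atrium 2 gave 20, atrium 4 gave 22 and ventricle 5 gave 23. The positive change from room air held for 46 of 47, for 44 without the tilted libraries and for 17 with the covariate. Rps19, a protein of the small subunit, read 300, 660, 327, 599 and 279 CPM in the atria against 254, 212, 205, 183 and 264 CPM in the ventricles. Atria 2 and 4 were more than 1.5 times above the other 3, which lay just above the ventricles.

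**Figure D5:**
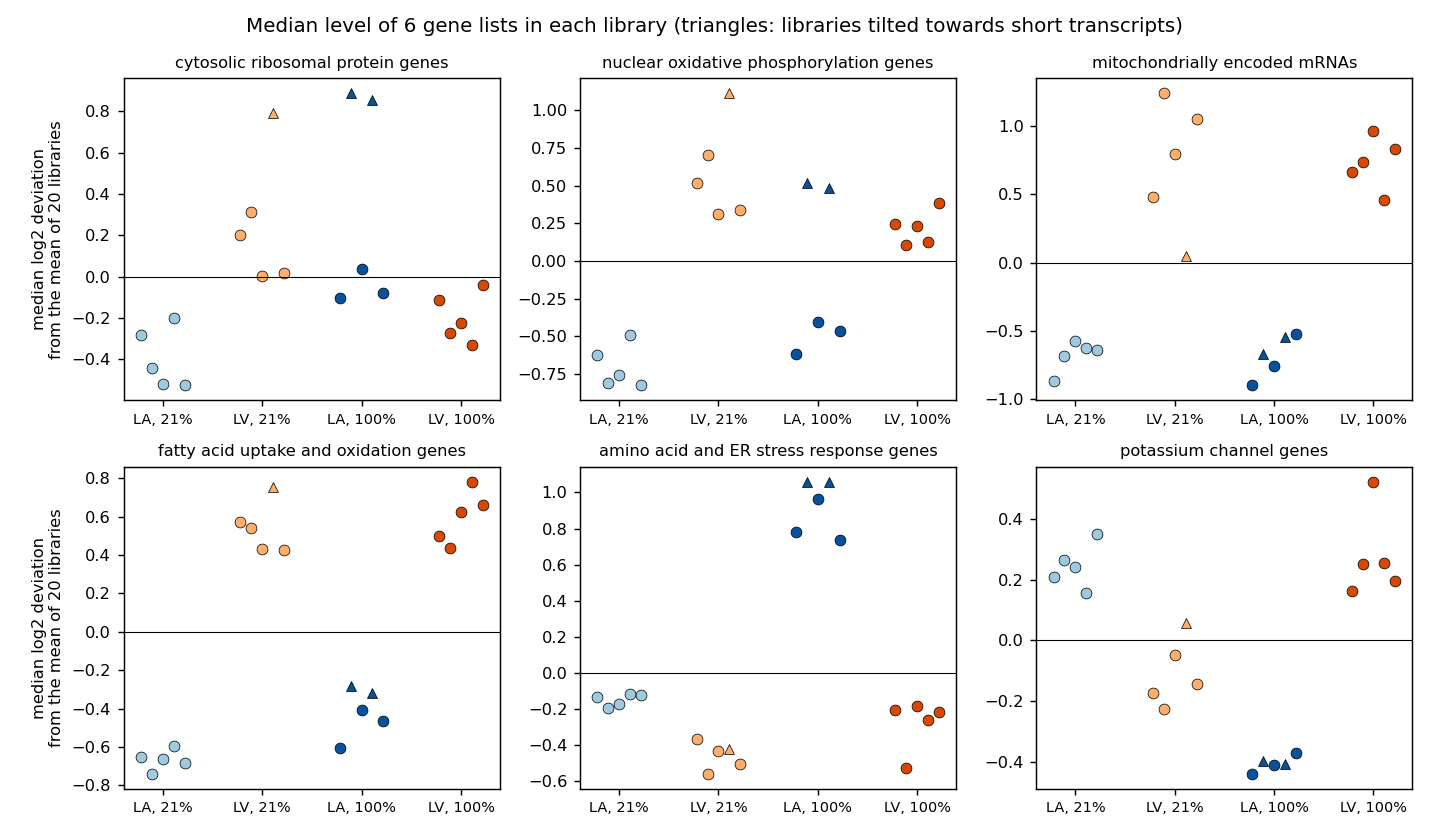
Median log2 deviation from the mean of the 20 libraries over the members of 6 gene lists, 1 point per library in each of the 4 groups, with triangles for the tilted libraries. The 2 triangles of the hyperoxic atrium stand above their group at 0.888 and 0.856 for the cytosolic ribosomal protein genes, while for the potassium channel genes they lie with the other 3 atria, and for the amino acid and ER stress response genes they are the highest of the group, at 1.059 and 1.056 against up to 0.966.

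Secreted signals and matrix were mostly atrial. Of 23 BMP and TGF-beta family genes 19 were higher in the hyperoxic atrium and 4 lower (Bmp7, Bmp2, Tgfb1 and Id1), with a median of 1.3, and of 24 Wnt pathway genes 13 were higher and 5 lower (Sfrp5, Wif1, Dkk2, Tcf7 and Fzd4). Bmp6 read 73.5, 70.8, 77.2, 61.1 and 73.6 CPM in the atria and 16.8, 19.7, 16.4, 19.8 and 18.3 CPM in the ventricles (1.97, SE 0.10), whereas Bmp7, a ligand of the same class, read 6.12 to 6.87 CPM and 19.1 to 28.9 CPM (-1.97, SE 0.12). These 2 ligands lay on opposite sides with no overlap. Bmp10, a ligand of trabecular and atrial muscle, was low in every library, at 2.83 to 6.27 CPM in the atria and 0.239 to 3.7 CPM in the ventricles (1.64, SE 0.53, adjusted p = 0.0132). Wnt11, a noncanonical ligand, was higher by 3.38 (SE 0.13), Sfrp1, a secreted Wnt antagonist, by 2.67 (SE 0.13) and Dkk3 by 4.18 (SE 0.18). Retinoid genes divided evenly, 6 higher and 6 lower of 17.

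Of 34 collagens and fibrillar matrix genes 24 were higher and 4 lower (Col15a1, Fbn2, Col6a2 and Lum), and the change from room air, where 29 were higher and none lower, was negative for 15 and positive for 1, or 14 and 3 without the tilted libraries. The library medians of the collagens and fibrillar matrix genes moved with the tilt in the hyperoxic atria: they deviated by 0.030 and 0.105 from the mean of the 20 libraries in atria 2 and 4 and by 0.629, 0.527 and 0.454 in atria 1, 3 and 5. Eln, elastin, read 9750, 4850, 8610, 4590 and 7640 CPM in the hyperoxic atria and 515, 348, 485, 308 and 516 CPM in the ventricles. The tilted atria were the lowest of the 5 and the ventricles still lay 8 times or more below (4.03, SE 0.23, or 4.32 without the tilted libraries), while the room-air atrial mean was 22500 CPM. Tnc, tenascin C, was higher by 3.49 (SE 0.18) and Bgn, biglycan, by 1.97 (SE 0.11).

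Cell cycle genes were lower in the hyperoxic atrium: 26 of 32 were lower and 2 higher (Cdk4 and Cdkn1c), with a median of -0.50, against 17 and 1 in room air. Ccnd1, cyclin D1, read 54.5, 47.8, 50.2, 48.9 and 49.7 CPM in the atria and 208, 188, 205, 189 and 213 CPM in the ventricles (-2.0, SE 0.09). Its gap was smaller than in room air by 0.74 (SE 0.12), whereas Ccna2 had a wider gap than in room air. Rrm2, ribonucleotide reductase, differed by -1.07 (SE 0.09) and Ccna2, cyclin A, by -0.82 (SE 0.08). For 10 of the 32 the chamber difference was more negative in hyperoxia than in room air and for 2 more positive, beside 19.5% and 17% of all genes.

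Markers of other cells also differed between the chambers, and their part in the results above was not tested. Pericyte markers were lower in the atrium for 7 of 8 and higher for none, with a median of -2.6; their summed level was 215 to 381 CPM in the atria and 883 to 1030 CPM in the ventricles. Among them, Abcc9 and Kcnj8, are also counted as potassium channel genes, at -3.52 (SE 0.15) and -3.0 (SE 0.13). Capillary and general endothelial markers were lower for 12 of 15 and higher for 2 (Eng and Emcn), summing to 1360 to 1740 CPM in the atria and 2290 to 2530 CPM in the ventricles. Cldn5, a tight junction protein of endothelium, read 7.08, 7.25, 7.58, 11.4 and 6.62 CPM against 87.7, 98.1, 100, 103 and 113 CPM (-3.65, SE 0.15).

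Endocardial markers were higher for 7 of 10 and lower for 1 (Hapln1), at 852 to 1100 CPM against 409 to 417 CPM; Smoc1 was higher by 3.34 (SE 0.14) and Npr3, which is also the clearance receptor for natriuretic peptides, by 2.29 (SE 0.16). Epicardial and mesothelial markers were higher for 11 of 13 and lower for 1 (Aldh1a2), at 729 to 802 CPM against 178 to 287 CPM. Krt19, a keratin of the mesothelial covering, read 52.5, 65.6, 60.1, 84.5 and 55.9 CPM against 6.39, 9.91, 13.6, 3.76 and 5.45 CPM. Fibroblast markers were higher for 7 of 12 and lower for 3 (Gsn, Lum and Pdgfra), at 6320 to 8650 CPM against 4130 to 5170 CPM. The fibroblast list and the collagen list lay on the same side, but they share Dcn, Lum, Col1a1, Col1a2 and Col3a1 and are not separate results.

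All 14 macrophage markers were higher in the atrium (median 1.3), at 358 to 691 CPM against 186 to 218 CPM. In room air 13 of the 14 were higher too (median 0.9), and the change from room air was positive for 4 and negative for none. Of 22 inflammatory cytokine and adhesion genes, 14 were higher and 4 lower (Cxcl12, Sele, Tnf and Cx3cl1). Cd68, a macrophage lysosomal protein, read 29.3, 29.7, 22.5, 20.3 and 16.4 CPM in the atria and 7.41, 8.05, 5.34, 8.18 and 8.23 CPM in the ventricles, and its gap of 1.67 (SE 0.15) exceeded that of room air by 1.26 (SE 0.21). Icam1, the leukocyte adhesion molecule, was higher by 1.61 (SE 0.11), while Cxcl12, a chemokine of capillaries and stroma, was lower by 2.48 on the log2 scale (SE 0.10). Erythroid markers were higher for 5 of 7 and lower for none, at 1740 to 5730 CPM against 908 to 1270 CPM. Mast cell markers were lower for 5 of 6, neutrophil markers for 3 of 6 and both tested adipocyte markers were lower, Fabp4, a lipid chaperone that capillaries also express, by 3.80 on the log2 scale (SE 0.23). Lung epithelial markers summed to at most 10.3 CPM in the atria and 3.17 CPM in the ventricles.

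Smooth muscle markers split, 3 higher and 4 lower of 9. Tagln, an actin-binding protein of smooth muscle and immature heart muscle, read 398, 551, 494, 483 and 320 CPM in the atria and 54.5, 31.6, 73.8, 32.9 and 59.1 CPM in the ventricles (3.16, SE 0.22). Myh11, the smooth muscle myosin heavy chain that defines the lineage, went the other way, with 0.765 to 2.02 CPM against 11.4 to 32.8 CPM (-3.77, SE 0.32). Arterial endothelial markers likewise split into 3 higher and 5 lower of 10: Bmx was higher by 2.54 (SE 0.12) and Sox17 lower by 3.17 on the log2 scale (SE 0.18).

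Among the 8 most positive changes from room air, in genes with at least 5 CPM in a group, were those of Nmrk2, Nppb, Uts2b, Cldn23, Asns, Gdf15 and Trib3. Cldn23, a claudin, read 5.79, 6.8, 7.82, 6.32 and 5.5 CPM in the hyperoxic atria and 0 to 0.781 CPM in the ventricles, with means of 0.0932 and 0.0953 CPM in the room-air chambers. Every hyperoxic atrium lay above every hyperoxic ventricle, and the chambers did not pass in room air.

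Among the 8 most negative were those of Irx4, Cacng6, Ky, Rbfox1, Clca3a2, Acss3 and Klhl38. The change of Irx4 rests on 1 library: fitted at -4.08, it was 0.68 without room-air atrium 1. Rbfox1, a splicing regulator of muscle and neurons, read 7.4, 4.79, 5.13, 5.02 and 9.12 CPM in the hyperoxic atria and 7.74, 10, 11.1, 11.3 and 8.45 CPM in the ventricles, with room-air means of 32.2 CPM in the atrium and 6.1 CPM in the ventricle. The hyperoxic groups overlapped and the difference of -0.62 (SE 0.17, adjusted p = 0.00493) was -0.38 and did not pass without atria 2 and 4 and ventricle 4. Ky, a muscle Z-disc protease, was at -4.80 (SE 0.26), against -1.51 in room air. Clca3a2, a secreted chloride channel regulator, kept an atrial excess of 3.53 (SE 0.40), from 6.51 in room air, with 4.5 to 12 CPM in the hyperoxic atria where the room-air atrial mean was 108 CPM.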

How the data were processed

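Whole left atria and left ventricles were profiled by RNA sequencing of poly(A) libraries (TruSeq Stranded mRNA kit, per the labels' protocols). The authors deposited 1 table of whole-number read counts per gene for each of the 20 libraries. Per the submitters' processing notes, the tools were fastp 0.20.1, STAR 2.7.6a, Subread 2.0.1 with featureCounts, and Salmon 1.3.0, with the genome build GRCm38.p6. Which gene models were counted, and whether reads were counted by strand, is not given in the sources used here; 51 of the named genes overlap another gene, 9 of them on the same strand, so reads may be shared. The sources name 2 different RNA extraction kits.

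Genes were filtered with filterByExpr, scaled by TMM and fitted with edgeR 4.0.16 (R 4.3.3), by the robust quasi-likelihood test with 1 coefficient per group over all 20 libraries. The contrasts were atrium minus ventricle in hyperoxia, the same in room air, and the difference between them; the first 2 contrasts share no library. The p-values were adjusted over 16598 genes by the Benjamini-Hochberg method, with a threshold of 0.05. The common biological coefficient of variation was 0.183. CPM intervals and ratios cover counting error only. Alternatives used DESeq2 1.42.0, limma 3.58.1 and the settings named in the closing section. The code was tested on simulated counts.

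Named genes were the 12 most positive and 12 most negative differences with at least 5 CPM in a group and no overlap, 16 chamber genes, up to 3 genes per function list (29 lists) and 2 per cell type list (17 lists) by smallest p, and the 8 largest changes from room air each way, 127 in all. A further 20 (among them Atp2a2, Ryr2, Cacna1c, Hcn4, Kcnj2, Kcnh2, Kcnj3, Chrm2, Ankrd1, Ddit3, Atf4, Mdm2, Hmox1, Acta1, Tbx20, Npr3, Corin, Fabp4 and Hey1) and the exceptions named within lists were chosen after their values were seen. The comparison and the lists were chosen with earlier results of these data known. Promoter sequences came from RefSeq, build GRCm38.p6, and gene coordinates from GENCODE M21. Of the lists not described in the report, T and B lymphocyte markers were 1 higher and 4 lower of 12, lymphatic endothelial markers 2 and 4 of 6, Schwann cell and neuron markers 3 and 3 of 9, and valve interstitial markers 3 and 3 of 8. A few genes that the rules pick are not reported here.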

Additional observations from a re-analysis of the deposited data

Results flagged for a closer look

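In 16 of the named genes, 1 hyperoxic library lay farther from the other 4 of its group than Dixon's critical value allows. Among the ventricles these were Kcnh7 in ventricle 1 (0.209 CPM), Mybphl in ventricle 1 (5.5 CPM), A2ml1 in ventricle 1 (0.209 CPM), Cldn23 in ventricle 4 (0.781 CPM), Gja5 in ventricle 2 (28.2 CPM), Bmp4 in ventricle 1 (11.9 CPM), Lmo7 in ventricle 5 (450 CPM), Cd68 in ventricle 4 (5.34 CPM), Srxn1 in ventricle 4 (23 CPM), Cdkn1a in ventricle 2 (48 CPM) and Mdm2 in ventricle 4 (75.9 CPM). Among the atria they were Asb15 in atrium 2 (0 CPM), Cldn5 in atrium 4 (11.4 CPM), Pfkm in atrium 1 (255 CPM), Cpa3 in atrium 4 (2.24 CPM) and Kcnh2 in atrium 4 (63.2 CPM). Chance alone marks about 1 in 20 groups, and over 147 genes in 2 groups that is about as many as were found. Ventricle 1 and ventricle 4 account for 4 each and atrium 4 for 3.

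For the named genes that follow, the log2 chamber difference in hyperoxia minus that in room air passed edgeR's quasi-likelihood test at an adjusted p under 0.05, beside 36.5% of all genes. The largest positive values were 7.13 for Nmrk2, 6.2 for Nppb, 4.81 for Cldn23, 3.87 for Asns, 3.86 for Gdf15, 3.73 for Trib3, 3.58 for A2ml1, 3.36 for Hspa1a, 3.07 for Fgf12, 3.01 for Nppa, 3.0 for Ryr3, 2.76 for Osgin1, 2.7 for Myl4, 2.7 for Acta1, 2.60 for Mybphl, 2.44 for Cdkn1a and 2.34 for Ddit3. Smaller positive values were 1.86 for Sesn2, 1.84 for Atf4, 1.62 for Ankrd1, 1.61 for Tagln, 1.61 for Rps19, 1.43 for Slc3a2, 1.39 for Tpsb2, 1.3 for Krt19, 1.26 for Cd68, 1.26 for Srxn1, 1.22 for Nupr1, 1.12 for Icam1, 0.93 for Rpl10, 0.90 for Fhl1, 0.87 for Rpl4, 0.83 for Myh7, 0.83 for Ftl1, 0.80 for Hmox1, 0.76 for Bmp6, 0.75 for Bmp7, 0.75 for Mdm2, 0.74 for Ccnd1, 0.69 for Cyc1, 0.68 for Bmp4, 0.67 for Wnt11, 0.60 for Uqcrc1, 0.58 for C1qc, 0.37 for Id2, 0.35 for Hspb6 and 0.34 for Hspb7.

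The most negative values were -3.28 for Ky, -3.02 for Rbfox1, -2.98 for Clca3a2, -2.80 for Acss3, -2.67 for Klhl38, -2.59 for Asb15, -2.21 for Hcn4, -2.18 for Hey2, -2.0 for Lrtm1, -1.98 for Gja5, -1.90 for Adra1b, -1.83 for Myh11, -1.80 for Car4, -1.72 for Kcnj2, -1.64 for Fgf13, -1.61 for Kcnh2 and -1.59 for Ryr2. Smaller negative values were -1.48 for Chrm2, -1.45 for Corin, -1.36 for Atp2a2, -1.31 for Tbx20, -1.22 for Cacna1c, -1.15 for Abcc9, -1.14 for Adcy5, -1.09 for Tbx5, -1.08 for Cxcl12, -1.06 for Ucp3, -1.01 for Hcn2, -0.98 for Tbx3, -0.98 for Fbp2, -0.97 for Hey1, -0.88 for Npr3, -0.84 for Kcnj3, -0.78 for Pln, -0.77 for Gjc1, -0.76 for Pam, -0.75 for Cacnb2, -0.70 for Cldn5, -0.69 for Pi16, -0.69 for Lmo7, -0.64 for Ldb3, -0.49 for Pfkl, -0.48 for Kcnj8, -0.40 for Ccna2, -0.40 for Cacna2d1, -0.40 for Pfkm and -0.38 for Rrm2. The fitted values of 3 genes with at most 3 counts in 1 chamber, 5.35 for Uts2b, -4.08 for Irx4 and -3.39 for Cacng6, depend on the prior count.

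Of these changes from room air, some ended when 1 library was left out. A2ml1 was 1.97 (adjusted p = 0.37) without room-air ventricle 3, and Irx4 turned to 0.68 without room-air atrium 1. Mybphl and Tpsb2 no longer passed in most of the fits that left out 1 library. Mybphl did not pass with the replicate block (2.27, adjusted p = 0.18) and was 0.87 without the libraries holding the other chamber's light chain. The same loss in 1 or more such fits was seen for Fbp2, Hcn2, Hspb6, Hspb7, Id2, Kcnj8, Lrtm1, Myh7, Pfkm, Pi16 and Rrm2; without hyperoxic ventricle 5, Rrm2 was -0.29 and Pfkm -0.29, and without hyperoxic atrium 4, Tpsb2 was 0.95. Fgf12 no longer passed with the replicate block (2.77, adjusted p = 0.093) or with length slope as a covariate (2.83, adjusted p = 0.073), and Myl4 no longer passed without the tilted libraries (2.46, adjusted p = 0.055).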

How the results depend on the processing

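The hyperoxic chamber contrast gave between 6611 and 9918 genes under every alternative except a test against a 1.5-fold change, which left 3089 (1645 higher, 1444 lower). The genes were not all the same ones. Of the 8098 in the main fit, 6836 also passed with length slope as a covariate and 6911 without the tilted libraries. With the replicate block and length slope together 5405 of them passed. Fitted on the hyperoxic libraries alone, the contrast gave 6695 genes, of which 6679 were among the 8098. Leaving out each library in turn gave 7563 to 8393 genes in hyperoxia, 8347 to 9538 in room air and 5146 to 6645 for the difference between them. That difference was the result that moved most: from 6060 genes to 2630 with length slope as a covariate (1113 positive, 1517 negative), 2594 with length slope and Y-linked reads, 1110 with the replicate block and length slope together, and 4442 without the tilted libraries. With DESeq2 its split was 3377 positive against 3191 negative, with RLE scaling 3099 against 2894, and with a filter of at least 1 CPM in 5 libraries 3259 against 2610. In room air that filter turned the split to 3693 higher and 4919 lower. Length slope as a covariate takes up part of the difference from room air by construction. How many of the calls lost with it reflect transcript length was not tested.

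Same-numbered atria and ventricles correlated at 0.022 to 0.16 in hyperoxia (4 pairs) and 0.035 to 0.32 in room air (5 pairs). The same-numbered ventricle was the best match for hyperoxic atrium 5 and for room-air atria 3, 4 and 5. In each of the 4 hyperoxic pairs both chambers agreed on whether Y-linked reads exceeded Xist. The main fit did not pair the samples by number, but these low correlations do not show that they are unpaired. With the replicate block over all libraries 7420 genes passed in hyperoxia, 8965 in room air and 6185 for the difference; with only the shared numbers these were 7429, 9000 and 6170.

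Of 5437 values for the 147 named genes in hyperoxia under 37 alternatives, 14 no longer passed, in Hcn4, Corin, Gja1, Rbfox1, Klhl38 and Bmp10, and none changed direction. Bmp10 was 1.69 and Gja1 -0.33 without passing when only hyperoxic libraries with more Xist than Y-linked reads were used, and Gja1 was -0.26 without atrium 1. For the difference from room air, 276 of 5143 values no longer passed and 7 changed direction. Those were Irx4, at 0.61 without the libraries holding the other chamber's light chain (chosen after seeing the data) and at 0.68 without room-air atrium 1 (-4.97 without hyperoxic atrium 3, its other extreme when 1 library was left out); Myl3, at -0.67 with length slope and -0.66 with Y-linked reads added; and Uqcrc1, at -0.10 with the replicate block and length slope, -0.03 with length slope and -0.00 with Y-linked reads added. The cause was not tested. Of 3404 list counts in hyperoxia, 89 moved by over 1.5 times. Depth limits the genes with at most 3 counts in a chamber to a ratio with a wide interval.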
